A study of Mus musculus with 3 samples.

Results

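E3, an epiblast stem cell (EpiSC) line, was compared with OG2, an embryonic stem cell (ESC) line, because the labels give both mouse lines a hybrid background. Each line was measured once, on an Illumina bead array of 25697 probes. The features described are all probes with a gene name in the platform annotation whose detection p-value, the scanner software's test against negative control beads, was under 0.01 on the E3 array, the OG2 array or both. There were 11291 such probes among 23978 named ones. They stood for 8256 of the 16593 genes with a named probe. Of these genes, 6649 were detected on both arrays, 812 on E3 only and 779 on OG2 only, and the other 16 had probes detected on opposite arrays. The highest detection p-value inside the rule was 0.00877 and the lowest one of a named probe outside it was 0.01003.

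The series holds 3 arrays of total RNA from cultures, 1 for each of the lines E3, T9 and OG2. E3 and T9 EpiSC grew in KSR medium with 5 ng/ml FGF2 on inactivated CF1 mouse embryonic fibroblasts and were taken off with collagenase IV, by a harvest meant to carry few feeder cells over. OG2 ESC grew without feeders, on gelatin, in KSR medium with the MEK inhibitor PD0325901 at 1 uM, the GSK3 inhibitor CHIR99021 at 3 uM and 1000 U of LIF, and were harvested on the dish. T9 is the line labelled as 129 background. So T9 does not share the hybrid label with E3 and OG2, and it shares medium, feeders and harvest with E3 alone. The labels do not name the strains behind either hybrid, the sex of the lines or their passage. E3 and OG2 may differ in strains and passage. Sex was not tested beyond the Y-linked gene Eif2s3y, which was above background on E3 and OG2 and not on T9.

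Because each side was a single line, pluripotent state, medium, inhibitors, feeders, harvest and line cannot be told apart in any difference given below. No test between lines was possible with 1 array per side. Sizes are therefore given on the normalized log2 intensity scale with the bead standard error (± throughout), which covers the scatter of the beads of a probe within an array and neither the culture nor the hybridisation. A gene was called higher or lower at a difference of at least 2-fold, which is 1 on the log2 scale. Where a gene was not above background on an array, only a bound exists for that side, written as "at least N-fold" and taken against the dimmest detected level of that array, 4.87 on E3, 4.78 on T9 and 4.87 on OG2. In a bulk culture, fewer cells of a kind and less RNA per cell cannot be told apart. The arrays were alike in detection, with 10791 probes detected on E3, 11171 on T9 and 10768 on OG2. Beads of a detected probe had a median standard error of 4.18% (E3), 4.17% (T9) and 4.36% (OG2) of the signal.

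Mouse pluripotent cells are kept in culture in at least a pair of states. ESC in MEK and GSK3 inhibitors with LIF stand for the naive state of the pre-implantation epiblast, which is held by transcription factors such as Esrrb, Klf4, Tbx3 and Zfp42. EpiSC depend on FGF and Nodal or Activin signals, stand for the primed state of the post-implantation epiblast, and are known for Fgf5 and Otx2. Both states express the core factors Pou5f1, Sox2 and Nanog.

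Of the 8256 genes, 940 were at least 2-fold higher in E3 than in OG2, which is 11.4% of those measured, and 849 were at least 2-fold lower, which is 10.3%. Among the 6649 genes detected on both arrays, 625 (9.4%) were higher and 554 (8.33%) were lower. A gene detected on 1 array alone can differ in the direction of that array only, so the 311 higher genes detected on E3 only and the 293 lower genes detected on OG2 only have a direction that the detection rule set. The large differences lay more often on the OG2 side. Of the genes detected on both arrays, at a threshold of 8-fold there were 26 higher and 49 lower in E3, and at 32-fold 2 higher and 8 lower.

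The median difference of the genes detected on both arrays was 0.03, and the middle of the distribution ran from -0.39 to 0.48 at its quartiles. The median bead standard error of a difference was 0.13. Of the 1179 genes detected on both arrays and called 2-fold apart, none had a 95% bead interval that reached 0, but 454 had one that reached down to 2-fold or less. A further 796 genes under 2-fold had an interval that reached it. The genes nearest to the threshold were Acsl3 at 1.0009 and Limk2 at -1.0003 just inside, and Rp9 at 0.9989 and Plekhb2 at -0.9986 just outside. The counts rest on the background correction: without it 352 genes were higher and 380 lower, and with a larger constant added after it 512 and 503.

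**Figure D1:**
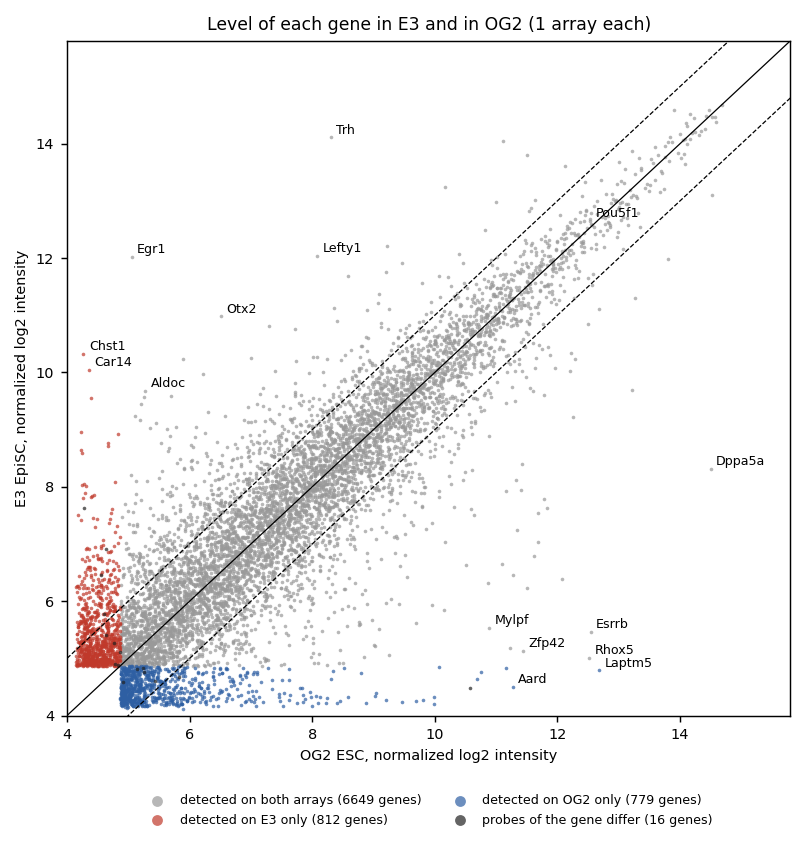
Normalized log2 intensity of each of the 8256 genes on the OG2 array (horizontal) and on the E3 array (vertical), with equal levels on the solid line and 2-fold differences on the dashed lines. Grey points are the 6649 genes detected on both arrays, red points the 812 detected on E3 only and blue points the 779 detected on OG2 only, with a few genes of the text named; Pou5f1 lies near the solid line, Egr1 and Trh far above it, and Esrrb and Rhox5 far below it.

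The gene highest in E3 relative to OG2 among those detected on both arrays was Egr1, an immediate-early transcription factor induced by ERK signalling. Its level was 12.02 ± 0.03 (E3), 12.14 ± 0.08 (T9) and 5.06 ± 0.18 (OG2), which made it 125-fold higher in E3 than in OG2. It was thus bright on both EpiSC arrays and just above background on OG2. Fos, another immediate-early gene, had a level of 9.24 ± 0.07 (E3), 10.34 ± 0.06 (T9) and 5.11 ± 0.13 (OG2) and was 17.5-fold higher in E3. Trh, which encodes the precursor of thyrotropin-releasing hormone, was 56.3-fold higher, at 14.11 ± 0.05 (E3), 13.90 ± 0.04 (T9) and 8.30 ± 0.08 (OG2). It was above background on all 3 arrays.

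Among the next genes were transcription factors of the post-implantation epiblast. Otx2, a homeobox factor of the early epiblast and forebrain, stood at 10.98 ± 0.05 (E3), 9.80 ± 0.05 (T9) and 6.51 ± 0.10 (OG2), 22.2-fold higher in E3 than in OG2. Pou3f1, also called Oct6, stood at 9.16 ± 0.09 (E3), 9.02 ± 0.06 (T9) and 5.20 ± 0.20 (OG2), a 15.6-fold difference. Lefty1, a secreted inhibitor and target of Nodal signalling, was at 12.04 ± 0.05 (E3), 11.84 ± 0.07 (T9) and 8.08 ± 0.08 (OG2), also 15.6-fold higher in E3. For these genes T9 lay on the E3 side of OG2 by more than 2-fold.

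The other genes of the 12 highest had more varied roles. Aldoc, the brain-type aldolase of glycolysis, was 21.2-fold higher in E3, and Mgarp, a mitochondrial protein known to respond to low oxygen, was 13.5-fold higher. Psg23, of the pregnancy-specific glycoproteins, was 20.4-fold higher, Cd59a, which protects cells from complement, 14.8-fold, and Rbmx, an RNA-binding protein of splicing, 18.7-fold. Psg23 belongs to a family of close copies, so its probe may read relatives as well. Espn, which encodes the actin-bundling protein espin, was 19.9-fold higher in E3 than in OG2, with levels of 9.57 ± 0.06 (E3), 5.85 ± 0.10 (T9) and 5.26 ± 0.09 (OG2). It was the gene of these 12 in which T9 was close to OG2.

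The 8 brightest genes detected on E3 and not on OG2 reached levels between 8.64 and 10.33 in E3. Chst1, a sulfotransferase of carbohydrate chains, was at least 43.9-fold higher in E3 than in OG2. The membrane-bound carbonic anhydrase gene Car14 was at least 36.0-fold higher, and Egln3, a prolyl hydroxylase that marks HIF for destruction and is itself a HIF target, at least 25.8-fold. For the kinase Pim2 the bound was 17.0-fold, and for the chemokine Cxcl12 it was 16.6-fold. Cmtm8, a membrane protein with a MARVEL domain, had a bound of 14.3-fold, and Slc39a8, a zinc and manganese importer, one of 13.6-fold. T9 was at least 2-fold above OG2 for each of these 7 genes, with levels of 7.06 to 9.36. The remaining gene, Cops8, a subunit of the COP9 signalosome, was at 8.77 ± 0.10 in E3 and at 4.90 ± 0.16 in T9, the latter just above background.

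**Figure D2:**
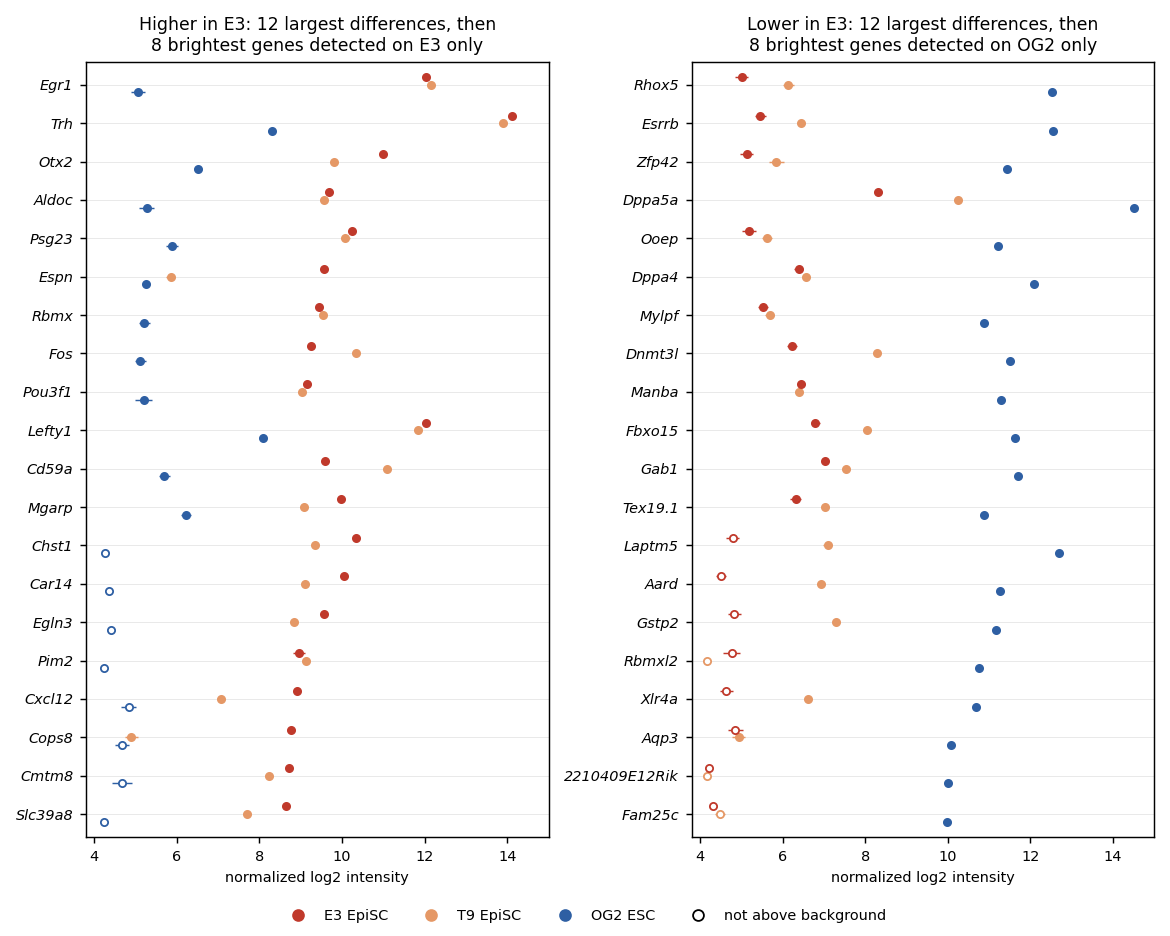
Normalized log2 intensity on each array (horizontal) for the genes furthest apart between E3 and OG2, as points with bars of 1 bead standard error; open points were not above background. In the left panel the E3 points (red) lie between 8.64 and 14.11 and the T9 points (orange) lie at 7.06 or above except for Espn and Cops8, and in the right panel the OG2 points (blue) lie at 9.98 or above.

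In the other direction the largest difference among genes detected on both arrays was that of Rhox5, an X-linked homeobox gene. Its level was 5.01 ± 0.16 (E3), 6.13 ± 0.13 (T9) and 12.52 ± 0.05 (OG2), so that it was 182-fold lower in E3 than in OG2. E3 was barely above background for it. Esrrb, the orphan nuclear receptor of the naive network, was 135-fold lower, at 5.46 ± 0.13 (E3), 6.46 ± 0.09 (T9) and 12.54 ± 0.05 (OG2). Zfp42, also called Rex1, was 79.1-fold lower, at 5.13 ± 0.16 (E3), 5.84 ± 0.18 (T9) and 11.43 ± 0.08 (OG2). In each of these genes the order was OG2 far above T9, and T9 above E3.

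Genes of the early embryo and germ cells filled most of the remaining places. Dppa5a was 72.5-fold lower in E3, and the oocyte gene Ooep, a part of the maternal complex under the egg's cortex, 65.9-fold lower. Dppa4, a chromatin-associated protein of pluripotent cells, was 51.6-fold lower, Dnmt3l, the cofactor of the de novo DNA methyltransferases, 38.9-fold, Fbxo15, an F-box gene of ESC, 28.4-fold, and Tex19.1, a germline gene that restrains retrotransposons, 23.5-fold. The other genes were Mylpf, a fast skeletal myosin light chain, 40.9-fold lower, Manba, the lysosomal beta-mannosidase, 28.4-fold lower, and Gab1, an adaptor below receptor tyrosine kinases, 25.2-fold lower. T9 was at least 9.3-fold below OG2 in each of the 12 genes.

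The 8 brightest genes detected on OG2 and not on E3 stood between 9.98 and 12.68 in OG2. Laptm5, a lysosomal membrane protein best known from blood cells, was at least 225-fold lower in E3, with 12.68 ± 0.07 in OG2 and 7.09 ± 0.11 in T9. Aard was at least 84.8-fold lower, the glutathione transferase gene Gstp2 at least 78.3-fold, the X-linked Xlr4a at least 56.3-fold, and Aqp3, a water and glycerol channel, at least 36.8-fold. T9 was above background for those 5 genes. Rbmxl2, a germ cell relative of Rbmx, was at least 59.2-fold lower in E3, 2210409E12Rik at least 35.0-fold and Fam25c at least 34.7-fold, and these 3 were not above background in T9 either. Gstp2, Xlr4a and Rbmxl2 have close copies in the mouse genome that a probe may read together.

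Rbmx and Rbmxl2 thus lay on opposite sides. Rbmx was at 9.44 ± 0.06 in E3 and 5.21 ± 0.13 in OG2, and Rbmxl2 was at 10.75 ± 0.06 in OG2 with no level above background in E3. Each is read by 1 probe, and whether either probe reads transcripts of the relative was not tested.

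The lines were next described by 40 gene lists with 733 entries, of which 649 had a named probe and 485 were measured, standing for 443 different genes. Counts of each list are to be read beside the shares over all genes, 11.4% higher and 10.3% lower. A small count near those shares is not a result about its list. The naive list had the lowest median of the lists over measured genes, although with the authors' processed values the 4 measured Rhox genes were lower, at -4.96 against -4.68. Of its 21 entries 18 were measured, and 15 of these were lower and 1 higher in E3, with a median difference of -4.16 beside 0.03 for all genes. Of its 14 genes detected on both arrays, 12 were lower. Also lower were the Krüppel-like factors of the list, which act as DNA-binding activators of the naive network. Klf5 was 17.6-fold lower in E3 (7.55 ± 0.07 against 11.69 ± 0.07 in OG2), Klf2 16-fold and Klf4 14.1-fold. Tbx3, a T-box factor below LIF, was at least 28.4-fold lower, and Tcl1, a cofactor of Akt, at least 16.2-fold lower, as neither was above background in E3. Pecam1, an adhesion molecule on ESC, was 7.57-fold lower and Dppa3, also called Stella, 6.43-fold lower.

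The members under 2-fold were Stat3 and Prdm14. Stat3, the transcription factor below LIF, differed by -0.95 ± 0.14. Prdm14 stood at 5.20 ± 0.19 on OG2 and below detection on E3. Tdgf1, the Nodal co-receptor Cripto, was the single naive-list gene higher in E3, 3.34-fold, at 7.58 ± 0.10 against 5.84 ± 0.09 in OG2. It also has a place on the Nodal list.

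The core list gave a median of -0.10 over 10 measured genes, with 2 higher and 2 lower. Pou5f1, or Oct4, was at 12.65 ± 0.07 (E3), 12.41 (T9) and 12.53 ± 0.07 (OG2), a difference between E3 and OG2 within 1.08-fold. Nanog was 2.87-fold lower in E3 (9.74 ± 0.05 against 11.27 ± 0.05) and Sox2 2.05-fold lower (8.20 ± 0.09 against 9.24 ± 0.08). The Sox2 difference, -1.03 ± 0.12, lay at the threshold. Lin28a, which binds let-7 precursors, was 3.33-fold higher in E3, and Utf1, a chromatin factor of pluripotent cells, 2.26-fold higher. For Utf1, T9 at 9.38 was level with OG2 at 9.51.

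Of the 14 post-implantation epiblast genes, 11 were measured, 8 were higher in E3 and none was lower, with a median of 2.30. Beside Otx2 and Pou3f1, Fgf5, the FGF ligand that marks this stage, was at least 13.2-fold higher, at 8.59 ± 0.06 in E3 and 8.38 in T9, with no level above background in OG2. Cldn6, a tight junction protein, was 11.4-fold higher, and the zinc finger factor Zic2 6.95-fold. Dnmt3b, a de novo DNA methyltransferase, was at 13.81 ± 0.06 (E3), 12.47 (T9) and 11.50 ± 0.06 (OG2), and so was 4.94-fold higher in E3 with T9 between the other lines. Grhl2, an epithelial transcription factor, was at 6.83 ± 0.10 (E3), 5.02 (T9) and 7.35 ± 0.07 (OG2). It thus separated T9 from both hybrid lines.

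The markers followed the labels, with the primed set brighter in E3 and the naive set brighter in OG2. The summed signal of the brightest probe of each naive gene was 2951 (E3), 5799 (T9) and 48295 (OG2), and for the post-implantation list it was 24457 (E3), 13275 (T9) and 5188 (OG2). These sums are of scanner signals with background left in, and Dppa5a alone gave 21456 of the naive sum on OG2. The median signal was 110 (E3), 157 (T9) and 647 (OG2) for the naive list. For the post-implantation list it was 324 (E3), 242 (T9) and 98 (OG2).

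**Figure D3:**
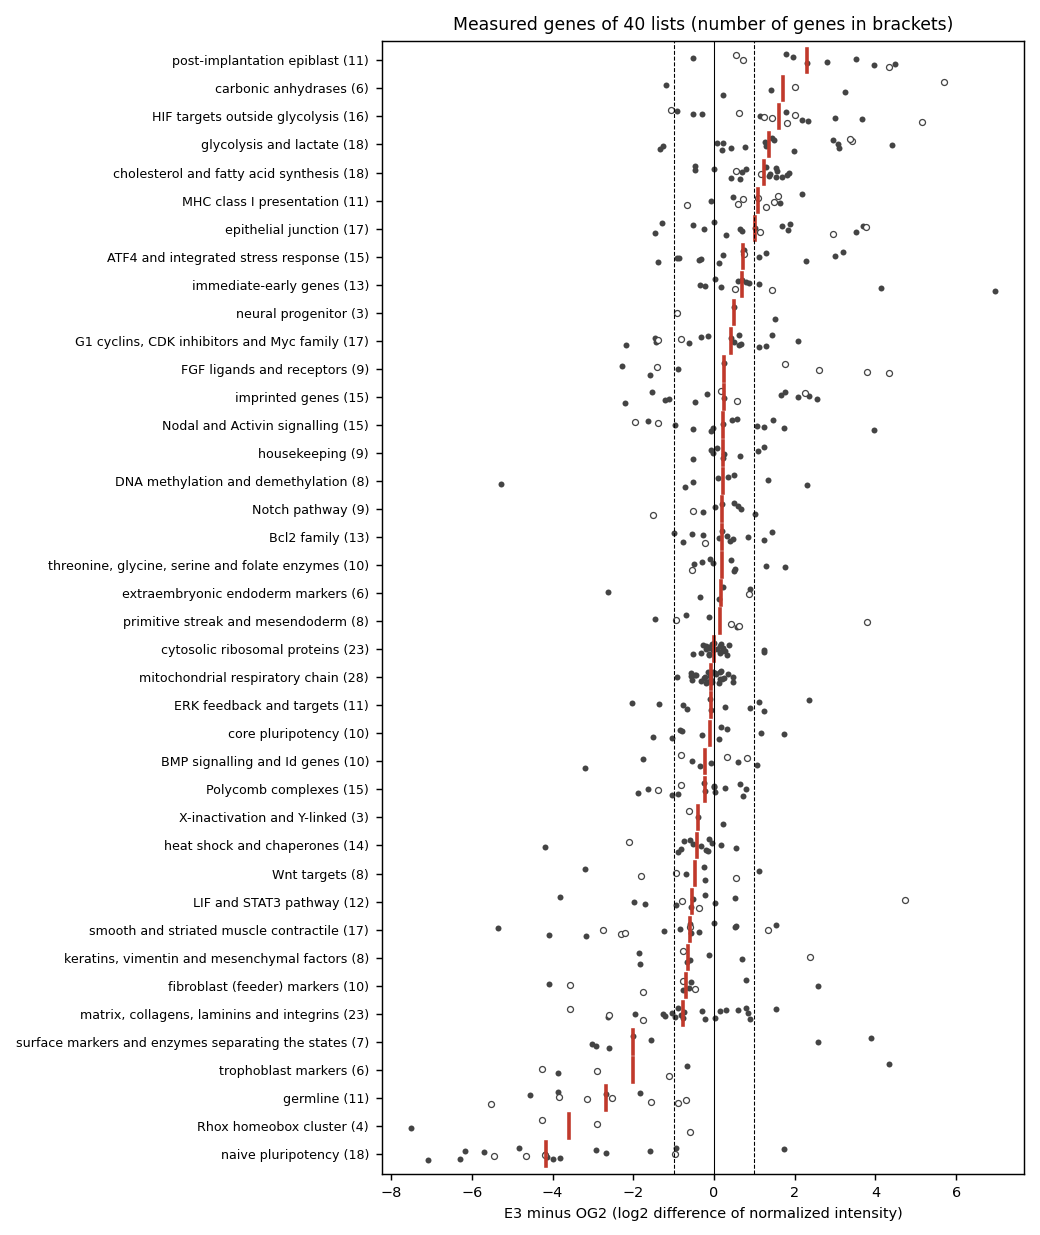
Difference between E3 and OG2 on the log2 scale (horizontal) for each measured gene of the 40 lists, 1 line per list, with the number of measured genes in brackets; filled points were detected on both arrays, open points on 1, and red bars are medians. The lists run from post-implantation epiblast genes, with a median of 2.30, to naive pluripotency genes, with a median of -4.16, and dashed lines mark 2-fold.

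The media differed in FGF2, MEK inhibitor, GSK3 inhibitor and LIF, so genes of those pathways were described by role. FGF ligands act through receptor tyrosine kinases, MEK and ERK, and the products of Spry, Spred and Dusp genes damp the pathway. Of the 9 measured genes of the list of FGF ligands and receptors 4 were higher and 3 lower in E3, beside 11.4% and 10.3% of all genes. The 4 higher genes were detected on E3 only, which fixed their direction. Of the 4 genes of the list detected on both arrays none was higher and 2 were lower, with a median of -1.24. By name stem, 11 Fgf genes were measured, and of the 4 of these detected on both arrays 1 was higher and 1 lower. The ligand genes Fgf5, Fgf8 and Fgf15 were not above background in OG2, and Fgf8 was at least 8.98-fold higher in E3 and Fgf15 at least 4.16-fold. In contrast Fgf4, the ESC ligand, was 2.98-fold lower in E3 (6.03 ± 0.11 against 7.61 ± 0.11) and not above background in T9. The furthest lower gene of the list was Fgfbp1, a secreted carrier of FGF ligands, at 4.98 ± 0.16 (E3), 7.02 (T9) and 7.27 ± 0.09 (OG2), a difference of -2.29 between E3 and OG2 that T9 did not share. The receptor gene Fgfr1 differed by 0.25 ± 0.20.

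The list of ERK targets and feedback genes did not follow Egr1. Of 11 measured genes 3 were higher and 2 lower, with a median of -0.08. Ier3 was 5.08-fold higher in E3, Dusp4, a phosphatase of ERK, 2.38-fold and the cyclin gene Ccnd1 2.15-fold. Phlda1 was 4.07-fold lower in E3 and the ETS factor gene Etv5 2.55-fold lower. Dusp6, an ERK phosphatase widely read as a target of the pathway, was at 9.58 ± 0.09 (E3), 11.26 (T9) and 9.66 ± 0.06 (OG2), so that E3 was level with the MEK-inhibited line and T9 was above both. The immediate-early list had 13 measured genes, 4 of them higher, none lower, with a median of 0.70. Beside Egr1 and Fos these were Egr2 and Atf3, a stress-induced factor that was 2.15-fold higher, while Jun (0.18 ± 0.23) and Junb (-0.21 ± 0.13) were within 2-fold. For Egr2 the bound was 1.71-fold.

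Nodal and Activin act through type I and type II receptors, Smad2, Smad3 and Foxh1. Of 15 measured genes 5 were higher and 3 lower in E3. The ligand gene Nodal had near-equal levels of 9.24 ± 0.08 (E3), 9.36 (T9) and 9.32 ± 0.10 (OG2). The higher genes were Lefty1, Tdgf1, Skil (2.74-fold), Acvr2b (2.38-fold) and Foxh1 (2.11-fold), which are an inhibitor, a co-receptor, a Smad co-repressor, a receptor and the Smad partner. The lower genes were ligands, with Gdf3 3.10-fold lower and the Activin subunit genes Inhbb at least 3.41-fold and Inhba at least 2.43-fold lower. Lefty2 and Fst, 2 further secreted inhibitors of this family of ligands, were within 2-fold between E3 and OG2.

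BMP4, whose signals raise the Id genes, was among the lower genes. Bmp4 was 9.11-fold lower in E3 (4.91 ± 0.16 against 8.10 ± 0.09 in OG2) and Id1 3.37-fold lower (4.99 ± 0.13 against 6.74 ± 0.10). For Id1, T9 was at 7.21, on the OG2 side. The receptor gene Bmpr1a was 2.08-fold higher in E3, while its other probe differed by 0.31. The Smad genes of this arm, Smad1 and Smad5, were within 2-fold.

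On the LIF and STAT3 list, 3 of 12 measured genes were lower in E3 and 1 was higher. Socs3, the feedback inhibitor, was 3.26-fold lower, Bcl3 3.96-fold lower and Klf4 14.1-fold lower. Pim2, given above, was the higher gene, while Pim1 was detected on OG2 and not on E3, and Pim3 differed by -0.53 ± 0.10. Neither Pim1 nor Pim3 was past 2-fold. Of 8 measured Wnt targets 1 was higher and 2 lower, beside 11.4% and 10.3% of all genes. Axin2, the feedback gene most used as a Wnt readout, was at 6.17 ± 0.10 (E3), 7.19 (T9) and 6.40 ± 0.11 (OG2), a difference of -0.23 ± 0.15 between E3 and OG2. Notum, which inactivates Wnt ligands, was not above background in E3 and at least 2.25-fold lower there, and Bmp4 was the other lower gene. Of 9 Notch pathway genes, Notch3 was 2.03-fold higher in E3 and Notch1 at least 2.06-fold lower, near the shares of all genes. Notch1 was detected on OG2 only, which fixed its direction.

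Glycolysis was among the lists furthest to the E3 side. Glycolytic enzymes split glucose to pyruvate, lactate dehydrogenase turns pyruvate to lactate, and HIF, the transcription factor complex of low oxygen, is known to raise many of these genes through the DNA letters ACGTG. Of 18 measured genes 11 were higher in E3 and 2 lower, with a median of 1.37. The higher genes stood along the pathway, from glucose uptake to lactate export. The glucose transporter gene Slc2a1 was at 12.98 ± 0.04 in E3 and 13.15 in T9, with a difference between E3 and OG2 of 1.99 ± 0.05, or 3.96-fold. Pfkl, the liver-type phosphofructokinase of the committing step, was 8.57-fold higher (11.68 ± 0.05 against 8.58 ± 0.09). Tpi1, triose phosphate isomerase, was 8.41-fold higher (13.24 ± 0.04 against 10.17 ± 0.07).

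Genes of the later steps and of lactate were also higher. Ldha was at 14.05 ± 0.05 (E3), 13.96 (T9) and 11.10 ± 0.04 (OG2), 7.69-fold higher in E3. Slc16a3, a lactate exporter, was at least 6.78-fold higher, though its 2 member probes were detected on different arrays. Eno2, the neuronal enolase, was at least 7.94-fold higher, and Pdk1, a pyruvate dehydrogenase kinase, 2.71-fold. Pkm, Aldoa and Pgam1 were 2.81-, 2.46- and 2.40-fold higher.

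Isoforms of 1 step differed in direction. Pfkp, the platelet-type phosphofructokinase, was 2.42-fold lower in E3 (8.12 ± 0.10 against 9.39 ± 0.14), and Hk1, a hexokinase, 2.53-fold lower. Hk2 differed by 0.41 ± 0.09, Slc2a3 by 0.20 ± 0.08 and Gapdh by 0.23 ± 0.04.

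**Figure D4:**
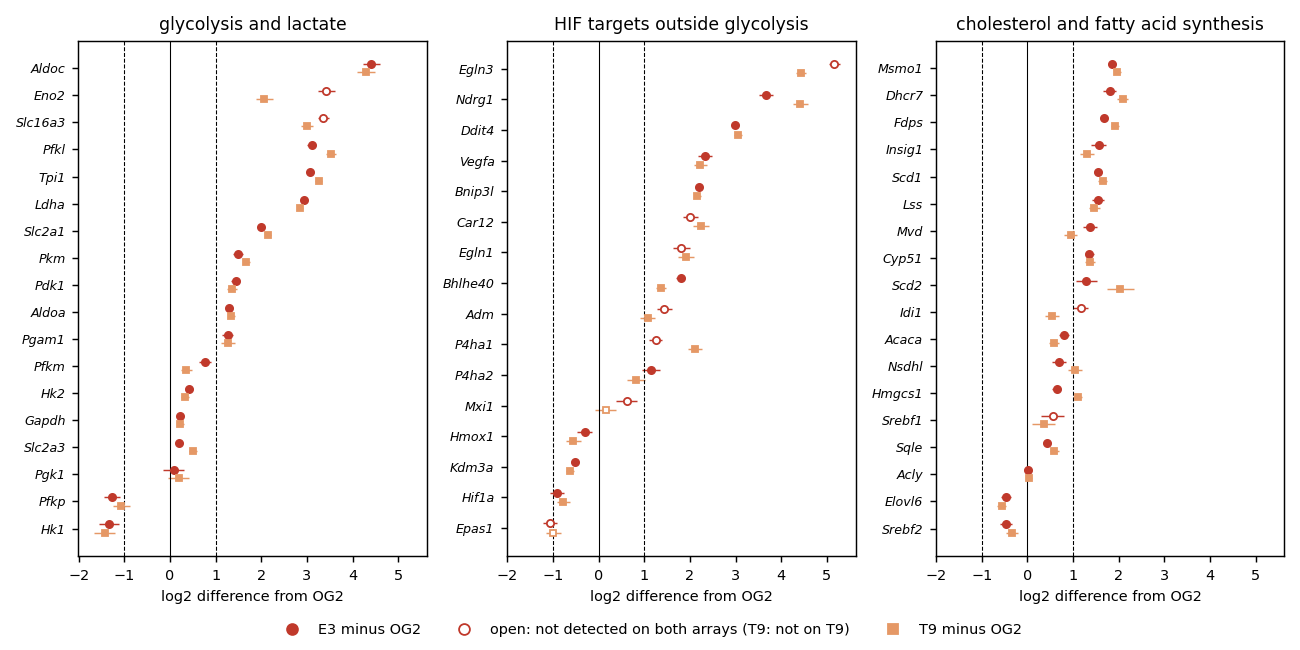
Log2 difference from OG2 of E3 (red circles) and T9 (orange squares) for the measured genes of the glycolysis, HIF target and cholesterol and fatty acid lists, with bars of 1 bead standard error; open circles stand for genes not detected on both E3 and OG2, and open squares for genes not detected in T9. In E3, 11 of 18, 11 of 16 and 10 of 18 genes lie right of the dashed 2-fold line, and both differences share the OG2 array.

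The promoters of the glycolysis genes are shown because their letters can be set beside those levels. Each is a RefSeq window on build GRCm38.p6 from 250 bases before to 50 bases after a gene's start, written 5′ to 3′ on the strand of the gene, with capitals marking ACGTG or its reverse complement CACGT. Aldoc (chr11:78322823-78323122, plus strand), Slc16a3 (chr11:120948817-120949116, plus) and Ldha (chr7:46845554-46845853, plus) are, by measured level, the 3 higher genes furthest apart among those whose window held the letters, and Eno2 (chr6:124769624-124769923, minus) leads by the same measure among those whose window held none. At its bound Eno2 was below Pfkl and Tpi1, whose windows held none either.
Aldoc: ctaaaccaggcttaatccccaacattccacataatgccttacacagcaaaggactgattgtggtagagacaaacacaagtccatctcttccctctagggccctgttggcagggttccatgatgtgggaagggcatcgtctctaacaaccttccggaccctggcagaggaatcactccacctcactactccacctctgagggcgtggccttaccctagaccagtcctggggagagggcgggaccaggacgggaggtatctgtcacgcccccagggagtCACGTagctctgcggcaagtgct
Slc16a3: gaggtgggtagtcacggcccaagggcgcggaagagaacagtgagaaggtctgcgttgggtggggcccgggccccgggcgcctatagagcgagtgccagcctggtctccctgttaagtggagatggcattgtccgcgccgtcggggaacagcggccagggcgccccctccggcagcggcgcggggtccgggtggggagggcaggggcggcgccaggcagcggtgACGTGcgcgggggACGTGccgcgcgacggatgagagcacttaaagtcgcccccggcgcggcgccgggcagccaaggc
Ldha: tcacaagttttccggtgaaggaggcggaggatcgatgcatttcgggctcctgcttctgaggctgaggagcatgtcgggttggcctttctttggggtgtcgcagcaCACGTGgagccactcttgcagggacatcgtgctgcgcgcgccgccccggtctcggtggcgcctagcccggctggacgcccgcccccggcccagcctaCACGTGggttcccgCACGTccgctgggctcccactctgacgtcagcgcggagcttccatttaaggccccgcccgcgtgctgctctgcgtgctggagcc
Eno2: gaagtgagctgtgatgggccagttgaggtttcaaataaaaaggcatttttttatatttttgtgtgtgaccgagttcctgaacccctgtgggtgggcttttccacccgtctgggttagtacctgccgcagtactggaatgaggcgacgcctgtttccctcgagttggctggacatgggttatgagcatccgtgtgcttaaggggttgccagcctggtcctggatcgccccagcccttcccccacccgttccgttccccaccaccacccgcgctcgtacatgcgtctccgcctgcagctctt
The Aldoc window held 1 match, the Slc16a3 window 2 and the Ldha window 5, some of which overlap within CACGTG, which reads the same on both strands. Aldoc and Ldha each have 2 entries, of which 1 held the letters. Searched on both strands, the letters were in the windows of 12 of the 17 glycolysis genes with an entry, which is 70.6%. A gene was counted if any of its entries held them. By the same rule they were in 21.8% of all 27025 genes with an entry and 30.2% of the 6752 measured ones. Of all 32851 single entries 19.6% held them. Within the list, 7 of 11 higher genes, 1 of 2 lower genes and 4 of 4 genes within 2-fold had them, so a match did not separate the higher genes from the others. A match is a run of letters and not a measured site.

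HIF targets outside glycolysis were likewise on the E3 side, with 11 of 16 measured genes higher, 1 lower and a median of 1.62. Of the 16, 6 were detected on E3 only, and the median was 1.22 at the bound, 0.84 with offset 50 and 0.61 without background correction. Ndrg1, a gene of stress and differentiation, was 12.7-fold higher (9.12 ± 0.06 against 5.45 ± 0.14), Ddit4, an inhibitor of mTORC1, 7.97-fold, the growth factor gene Vegfa 5.04-fold and Bnip3l, which marks mitochondria for removal, 4.56-fold. The genes of the factor itself, which are counted on this list, went the other way or were within 2-fold. Hif1a was at 6.03 ± 0.13 in E3 and 6.94 ± 0.09 in OG2, and Epas1 was not above background in E3, with a bound of 1.29-fold. Only 11 of these 16 genes had a promoter entry, under 80%, so their share of the letters is not given. Carbonic anhydrases, which hydrate CO2 and are in part HIF targets, had 4 of 6 measured genes higher and 1 lower. Over all genes the shares were 11.4% and 10.3%. Of the 4 higher genes 2 were detected on E3 only, which fixed their direction. Of the 4 genes detected on both arrays 2 were higher and 1 lower. The list median was 1.71, and 0.30 with no detection filter. Car4 was 9.49-fold higher and Car14 at least 36.0-fold, while Car13 was 2.27-fold lower.

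The respiratory chain stood in contrast. None of the 28 measured genes of its list was 2-fold apart in either direction, beside 11.4% and 10.3% of all genes. The differences ran from 0.48 for Uqcrc2 of complex III to -0.91 for Cox4i1 of complex IV, with a median of -0.08. Of 22 measured genes with the name stem Cox, some of them outside the list, 1 was at least 2-fold lower. The 23 measured genes of the ribosomal protein list had a median of 0.00, with Rpl22 (2.38-fold) and Rplp0 (2.37-fold) as the 2 higher members. Of 33 measured genes with the name stem Rpl 2 were higher and 1 lower. Of 26 with the stem Rps 1 was higher and none lower.

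Cholesterol and fatty acid synthesis had 10 of 18 measured genes higher in E3, none lower and a median of 1.23. The largest were Msmo1 (3.60-fold), Dhcr7 (3.48-fold) and Fdps (3.20-fold), enzymes along the sterol route, then Insig1 (2.95-fold), a sterol sensor that is itself a SREBP target. Another Insig1 probe differed by -0.19. Scd1, which desaturates fatty acids, was 2.92-fold higher. The regulator genes were not among them: Srebf2 differed by -0.47 ± 0.13, and Srebf1 was dim in E3 and not above background in OG2. Phgdh (3.38-fold) and Psat1 (2.45-fold), the first enzymes of serine synthesis, were the 2 higher members of the 10 measured one-carbon genes.

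Stress lists gave mixed directions. On the ATF4 list 5 of 15 genes were higher in E3 and 1 lower, with Vldlr, a lipoprotein receptor, 9.19-fold higher, Chac1, which degrades glutathione, 4.84-fold higher and Ddit3, or CHOP, 2.62-fold lower. Atf4 itself was at 9.88 ± 0.07 in E3 and 9.76 ± 0.06 in OG2. Of 14 heat shock genes none was higher and 2 were lower, beside 11.4% and 10.3% of all genes. Hspb1, a small heat shock protein, was 18.4-fold lower in E3 (7.62 ± 0.13 against 11.82 ± 0.14), and its relative Cryab at least 3.58-fold lower. Cryab was detected on OG2 only, which fixed its direction.

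Germline genes were mostly lower in E3. Of 11 measured genes 9 were lower in E3, none was higher, and the median was -2.69, but 7 of them were detected on OG2 only, which fixed their direction. The median was -1.68 without background correction, -0.89 with no detection filter and -4.04 with the authors' processed values. Dazl, an RNA-binding protein of germ cells, reached 9.81 ± 0.05 in OG2. Neither EpiSC line had it above background, and the bound was 30.7-fold lower in E3. Taf7l was at least 8.79-fold and Asz1 at least 6.38-fold lower, and Tfap2c, a factor of germ cells and trophoblast, was 14.7-fold lower (6.63 ± 0.11 against 10.50 ± 0.09). Of the 4 measured Rhox genes 3 were lower, namely Rhox5, Rhox9 with a bound of 13.1-fold and Rhox6 with one of 4.64-fold. Of the 4, 3 were detected on OG2 only, which fixed their direction. The Rhox median was -3.58, and -0.49 with no detection filter.

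Of the 8 measured genes of DNA methylation and demethylation, 2 were higher in E3 and 1 lower. Dnmt3l, given above, was the lower one, and Dnmt3b, a de novo methyltransferase gene, was 4.94-fold higher. Tdg, a glycosylase of active demethylation, was 2.51-fold higher in E3, while Dnmt1 (-0.72 ± 0.09) and its partner Uhrf1 (-0.52 ± 0.08) were within 2-fold. Of 15 Polycomb genes none was higher and 4 were lower, namely Mtf2 (3.68-fold), Pcgf2 (3.08-fold), Eed (2.05-fold) and Bmi1, which was not above background in E3 and had a bound of 1.77-fold. The methyltransferase gene Ezh2 differed by 0.71 ± 0.10 and Suz12 by -0.88 ± 0.07.

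Imprinted genes, expressed from 1 parental allele, were higher in E3 for 6 of 15 measured and lower for 4. Grb10 was 5.86-fold higher, Phlda2 5.09-fold, Cdkn1c 4.23-fold, Gnas 3.36-fold and Snrpn 3.18-fold, and Nnat at least 3.32-fold. Igf2 was 4.62-fold lower in E3, Impact 2.92-fold, Peg10 2.33-fold and Mest 2.18-fold. Cdkn1c and Phlda2 lie in 1 imprinted cluster with Igf2, the first pair being higher and the last lower.

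On the list of cell cycle genes 4 were higher and 4 lower of 17. Mycl was 2.73-fold higher in E3, and the D-type cyclins were split, with Ccnd2 2.43-fold and Ccnd1 2.15-fold higher and Ccnd3 4.56-fold lower (9.60 ± 0.08 against 11.79 ± 0.08). Rb1 was 2.75-fold and Cdkn1a, or p21, 2.72-fold lower, and Cdkn2a, with no level above background in E3, had a bound of 1.80-fold. Among 13 measured Bcl2 family genes, the pro-death genes Pmaip1 (2.71-fold) and Bcl2l11 (2.35-fold) were higher in E3 and Bbc3 was just past the threshold on the lower side. Other probes differed by 0.75 and 0.02 for Bcl2l11 and by 0.53 and -0.19 for Bbc3. Over all genes 11.4% were higher and 10.3% lower.

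Epithelial junction genes were more often higher than lower in E3. Of 17 measured epithelial genes 9 were higher and 2 lower in E3. Among the 14 of them detected on both arrays 6 were higher and 2 lower. Esrp1, an epithelial splicing regulator, was 12.8-fold higher (9.03 ± 0.06 against 5.35 ± 0.10), Cldn3 was at least 5.89-fold higher and Rab25, a vesicle GTPase of epithelia, at least 9.06-fold higher. Cldn4 was 2.74-fold and Spint1 2.44-fold lower in E3. Cdh1, or E-cadherin, was at 8.78 ± 0.08 in E3 and 8.49 ± 0.09 in OG2 but 7.22 in T9. For the 14 genes of the list detected on both arrays the median was 0.67 for E3 against OG2 and -0.63 for T9 against OG2. Vim (3.55-fold) and Zeb1 (3.64-fold), genes of mesenchymal character, were lower in E3 than in OG2, with T9 at or above OG2.

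Matrix genes were more often lower, with 8 of 23 lower in E3 and 1 higher. Among the 20 of them detected on both arrays 5 were lower and 1 higher, and 3 were detected on OG2 only, which fixed their direction. The basement membrane genes Lama1 (6.23-fold), Hspg2 (3.86-fold) and Lamc1 (2.32-fold) were lower in E3, Nid1 was at least 4.46-fold lower, and Lox, which cross-links collagen, at least 11.2-fold lower. Contractile genes were similar, with 7 of 17 lower and 2 higher. Among the 12 of them detected on both arrays 4 were lower and 1 higher. The direction of the 4 detected on OG2 only and the 1 on E3 only was fixed by detection. Acta2, smooth muscle actin, was at 7.24 ± 0.06 (E3), 9.35 (T9) and 11.34 ± 0.07 (OG2), 17.1-fold lower in E3, and Acta1 was 9.01-fold lower.

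The feeders were fibroblasts. Of 19 fibroblast markers with a probe, the E3 array detected 6, the T9 array 9 and the OG2 array 10. Their summed signal, with background left in, was 2325 (E3), 3113 (T9) and 4837 (OG2). Acta2 alone gave 216, 726 and 2569 of these units, and the other 18 summed to 2108 (E3), 2387 (T9) and 2268 (OG2). Of the 6 markers detected on both E3 and OG2, Thy1 was higher in E3, Acta2 lower and 4 were within 2-fold. Col1a1 and Lox were not above background in E3, and Col1a2, Col3a1 and Postn were detected on neither E3 nor OG2. Thy1 was 5.92-fold higher, with E3 at 7.77 ± 0.09, T9 at 5.74 and OG2 at 5.20 ± 0.16.

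Of the other lineages, 3 of 12 trophoblast markers were detected in E3 and 6 in OG2, with Psg23 giving most of the E3 signal, and 6 and 5 of 13 extraembryonic endoderm markers. Neural progenitor markers were few, with 2 of 10 detected in E3 and 3 in OG2, and Nes, an intermediate filament of neural progenitors, was 2.84-fold higher in E3. Primitive streak genes set T9 apart, with 15 of 17 detected against 7 in E3 and 5 in OG2.

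Surface proteins and enzymes used to tell the states apart were 2 higher and 5 lower of 7 measured. The largest difference of the list was that of Cd59a, given above, which was 14.8-fold higher in E3. Cd9, a tetraspanin, was 8.08-fold lower in E3, the phosphatase gene Alpl 6.07-fold, Icam1 4-fold and Cd81 2.96-fold. The list median was -1.9988, and -0.1975 with no detection filter. Of the MHC class I list, 6 of 11 genes were higher, beside 11.4% of all genes, and none lower. However, 6 of the 11 were detected on E3 only, which fixed their direction, and at the bound 3 were higher and the median went from 1.09 to 0.46. It was 0.40 without background correction and 0.49 with offset 50. Psmb10, an immunoproteasome subunit, was 4.50-fold higher and H2-T23 3.13-fold higher, and H2-K1, with no level above background in OG2, had a bound of 1.89-fold. B2m, the shared light chain, differed by -0.07 ± 0.09.

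T9 did not share every difference between E3 and OG2. In 149 genes, which is 1.8% of those measured, E3 was at least 2-fold from OG2 and at least 2-fold from T9 in the same direction, with T9 less than 2-fold beyond OG2. Of these, 91 were higher in E3, 47 of them detected on both arrays, and 58 were lower, 40 of them detected on both arrays. These counts compare 3 single arrays and carry no estimate of how often 2 cultures of 1 line would differ as much. At the bound the count was 125. As a scale for it, the differences between E3 and T9 had an SD of 0.50 over genes detected on both E3 and OG2, and those between E3 and OG2 one of 0.88.

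On the higher side the 6 genes named by their gap between E3 and T9 were Cops8, Espn, Ap1m2, Rab25, Pclaf and Slitrk5. Rab25 was at 8.05 ± 0.07 in E3 and not above background on the other arrays, at least 9.64-fold above T9. Pclaf, a PCNA-associated factor of DNA replication, was at 9.05 ± 0.11 (E3), 5.78 ± 0.11 (T9) and 5.78 ± 0.16 (OG2). Slitrk5, a neuronal adhesion protein, was at 7.38 ± 0.10 in E3 and not above background on the other arrays. Cops8, Rab25, Pclaf and Slitrk5 were each read by 1 probe, which was not checked for strain variants. Ap1m2, an adaptor subunit of epithelial sorting, was at 8.04 ± 0.09 in E3, 6.35 ± 0.16 in OG2 and below detection in T9. Epithelial genes thus made up part of this group, since Prss8 and Tjp3 of the same list were also among the 149.

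Of the 58 genes on the lower side, 29 had T9 below OG2, by less than 2-fold, and the 6 with the largest gaps between E3 and T9 had T9 above OG2. Nr5a2, a nuclear receptor of the naive network, was at 8.41 ± 0.08 in OG2 and 8.64 ± 0.04 in T9 and not above background in E3. Gbx2, a homeobox gene of the same list, was at 9.25 ± 0.06 in OG2, 9.31 ± 0.06 in T9 and 5.05 ± 0.13 in E3, 18.4-fold lower in E3 than in OG2. These 2 of the 18 measured naive genes were therefore low in E3 and not in T9. Nckap1l, a WAVE complex subunit of blood cells, was at 6.97 ± 0.09 in OG2 and 8.93 ± 0.07 in T9 and not above background in E3. Igf2 was at 7.13 ± 0.06 (E3), 10.21 ± 0.04 (T9) and 9.34 ± 0.05 (OG2), and Erdr1 at 7.64 ± 0.08, 11.40 ± 0.05 and 10.31 ± 0.11. Tekt1, a tektin of cilia, was dim in OG2 at 5.82 ± 0.16, with 7.49 ± 0.09 in T9.

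**Figure D5:**
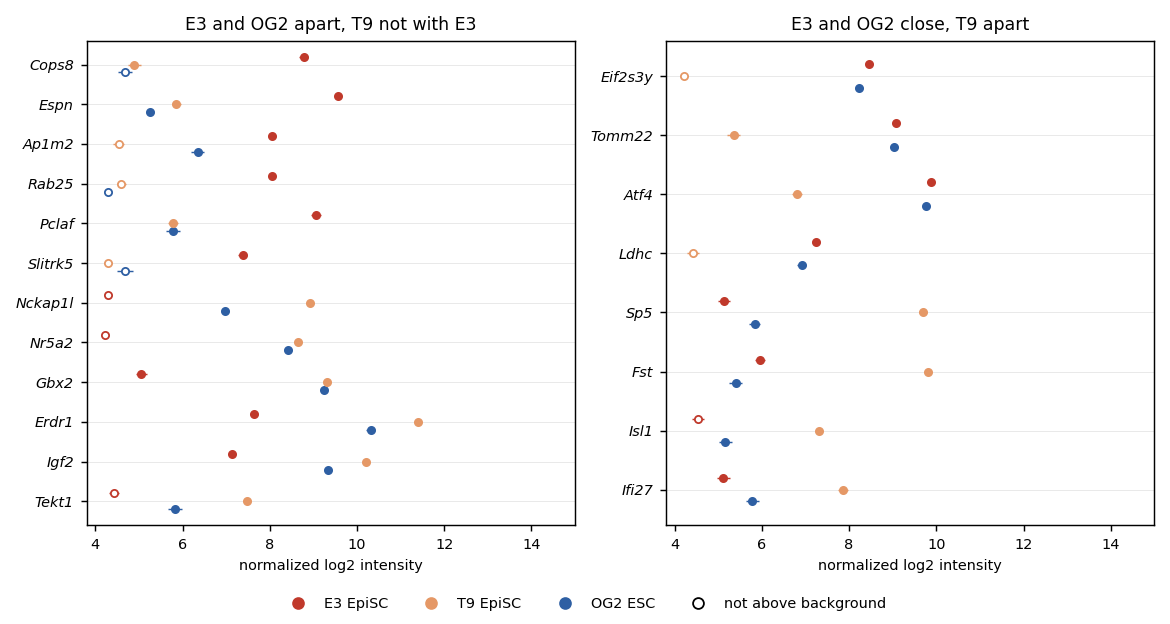
Normalized log2 intensity on each array (horizontal) for the genes chosen by the largest differences between E3 and T9, as points with bars of 1 bead standard error; open points were not above background. On the left, E3 and OG2 are at least 2-fold apart and T9 is not on the E3 side, as for Gbx2 with 9.31 in T9 and 9.25 in OG2; on the right, E3 and OG2 are within 2-fold and T9 is at least 2-fold above or below both, as for Sp5 with 9.69 in T9.

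Another 120 genes, 1.45% of those measured, were within 2-fold between E3 and OG2 while T9 was at least 2-fold above both, in 69 genes, or below both, in 51. At the bound there were 126. These genes were chosen by that pattern, and with 1 array per line the background, the culture and the line cannot be told apart. Eif2s3y, a Y-linked translation factor gene, was at 8.45 ± 0.07 in E3 and 8.22 ± 0.09 in OG2 and below detection in T9. Tomm22, a mitochondrial import receptor, was at 9.07 ± 0.04 (E3), 5.35 ± 0.14 (T9) and 9.04 ± 0.07 (OG2). Atf4 was at 6.80 ± 0.11 in T9 against 9.88 and 9.76 in E3 and OG2, and Ldhc, the testis form of lactate dehydrogenase, was not above background in T9 alone. Eif2s3y, Tomm22 and Atf4 were each read by 1 probe, and probes were not checked for strain variants. Probes of a gene could disagree on T9. For Actb, 1 probe was at 10.69 (E3), 8.60 (T9) and 10.70 (OG2). Another Actb probe was at 11.78 (E3), 11.95 (T9) and 12.70 (OG2). Whether the genes read by 1 probe would show the same was not tested.

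Genes with T9 above both were led by Sp5, a target of Wnt signalling in the primitive streak, at 9.69 ± 0.08 in T9, 5.13 ± 0.14 in E3 and 5.83 ± 0.13 in OG2. Fst, the Activin antagonist follistatin, was at 9.81 ± 0.05 in T9, 5.96 ± 0.11 in E3 and 5.40 ± 0.15 in OG2. Isl1, a homeobox gene of mesoderm and motor neurons, was at 7.31 ± 0.06 in T9 and dim or undetected elsewhere, and Ifi27, an interferon-induced gene, was at 7.86 ± 0.11 in T9, 5.12 ± 0.15 in E3 and 5.78 ± 0.15 in OG2. Lefty2 and Dusp6 belonged to the same group. A further 595 named probes were detected on T9 alone and so lie outside the 11291.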

How the data were processed

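Total RNA of 1 culture each of E3, T9 and OG2 was amplified (400 ng input, 12 h of in vitro transcription), labelled with Cy-3 and hybridised to 1 array each, per the labels' protocols. The intensity of a probe is the mean over its beads in arbitrary units, not normalized between arrays, deposited by the authors with a bead standard error, also an intensity, and a detection p-value in steps of 1 in 798 (BeadStudio, per the submitters' processing notes; version and genome build: not given in the sources used here). The scanner columns of the OG2 file carry the name O2, and they were taken as OG2 because the file is recorded under that sample. The lowest signals, near 70 units, show that background had not been subtracted. Depth has no meaning for arrays, and the number of arrays limits the precision.

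Probes took their gene from the platform annotation: 23978 of 25697 had 1 symbol, none had several and 1719 had none; 23962 of the named probes matched the RefSeq gene table and no symbol changed. Signals were corrected with limma's normexp method using the detection p-values (nec, offset 16), put on the log2 scale and quantile-normalized over the 3 arrays (limma 3.58.1, R 4.3.3; counts in Python 3.11.15 with pandas 2.3.3). T9 entered the normalization and the comparisons that name it. A gene was read by its probe inside the detection rule with the highest mean over E3 and OG2. No gene had probes 2-fold apart in opposite directions among 2177 with several, and 208 had probes at least 2-fold apart from each other. Bead errors were carried to the log2 scale through each array's own curve of level on signal, and intervals are 1.96 bead standard errors. No p-value was computed, since there was 1 array per side. The calculation was tested on simulated data.

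Named genes were the 12 highest and 12 lowest detected on both arrays, the 8 brightest detected on either side alone with a bound of 2-fold, the 6 largest differences between E3 and T9 in each direction among genes T9 did not share, and the 4 largest in each direction where T9 stood apart, with list members past 2-fold and at list ends. The comparison, the lists and the rules were chosen with earlier results of these data known. The authors' processed value table, whose values had rank correlation 1 with the scanner intensities, was an alternative; its scale and centring are unknown, with medians of the listed values of 80.97 in E3, 80.79 in T9 and 80.78 in OG2. Other alternatives were no background correction, offset 50, median scaling, cyclic loess, E3 and OG2 normalized alone, detection p-values under 0.05 or no filter, the mean over probes, and differences at the bound. Base composition of promoters was not compared, because 76.4% of higher and 79.5% of lower genes had an entry, under the 80% that was required.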

Additional observations from a re-analysis of the deposited data

Results flagged for a closer look

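In 10 genes E3 and T9 lay at least 2-fold from OG2 on opposite sides. Each side is a single array, so the difference between the lines was not tested. Higher in E3 than in OG2 and lower in T9 were Ap1m2 (1.69 ± 0.18 log2 for E3 against OG2 and -1.81 ± 0.19 for T9 against OG2), Ctsc (1.14 ± 0.17 and -1.81 ± 0.13), which encodes the protease cathepsin C, and Riok1 (1.15 ± 0.11 and -1.22 ± 0.15), an atypical kinase of ribosome assembly. Ap1m2 and Ctsc were not above background in T9. Lower in E3 and higher in T9 were Nckap1l (-2.68 ± 0.11 and 1.96 ± 0.11), Erdr1 (-2.67 ± 0.14 and 1.09 ± 0.12), Gpx3 (-1.64 ± 0.19 and 1.03 ± 0.14), an extracellular glutathione peroxidase, and Tekt1 (-1.39 ± 0.19 and 1.67 ± 0.18). The others were Ccno (-1.13 ± 0.19 and 1.41 ± 0.15), which acts in cells with many cilia, Lrig1 (-1.12 ± 0.15 and 1.19 ± 0.14), an inhibitor of receptor tyrosine kinases, and the Wnt receptor gene Fzd10 (-1.11 ± 0.19 and 1.41 ± 0.14). Nckap1l, Tekt1 and Ccno were not above background in E3. The differences of E3 and of T9 share the OG2 array.

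Probes with no gene name were outside the comparison, and 691 of them were detected on E3 or OG2. Of these, 123 were at least 2-fold apart, 66 higher and 57 lower in E3, which is 17.8% of the unnamed probes beside 21.7% of the measured genes.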

How the results depend on the processing

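The 2-fold counts followed how background was treated. Without background correction, 352 genes were higher and 380 lower in E3, with 303 and 298 among those detected on both arrays. Then 44 genes were not shared by T9 and 58 had T9 apart. With offset 50 the counts were 512 higher and 503 lower, 410 higher among genes detected on both arrays, and 69 not shared by T9. The authors' processed values gave 1488 higher and 1368 lower, 413 not shared by T9 and 242 with T9 apart. By construction, the uncorrected and offset settings leave or add a constant that shrinks differences of dim probes. All other counts stayed within 1.5 times their main value, and higher genes made up 48.1% to 52.5% of calls over the settings. Of the 215 named or listed genes past 2-fold, 154 were past it the same way in all 10 alternatives, and none changed direction. The losses were 60 genes without background correction, 43 with offset 50, 16 at the bound, 9 with the mean over probes, 2 with median scaling and 1 with cyclic loess. List medians moved in the same way. Of the 12 lists with a median of at least 1 in size, 12 kept their direction in all 10 alternatives, but the median moved by over 1.5 times in 9 without background correction, 7 with no detection filter, 6 with offset 50, 3 with the authors' processed values and 1 at the bound. Without background correction the medians were -2.76 (naive), -1.90 (Rhox), -1.68 (germline), -0.89 (trophoblast), 0.74 (carbonic anhydrases), 0.76 (cholesterol), 0.61 (HIF targets), 0.40 (epithelial) and 0.40 (MHC class I). No replicate could be left out with 1 array per line, and no paired analysis was possible because each group holds 1 array. Signal over background limits the dim genes, for which only bounds are given.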

Other observations

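Genes that share a name stem were also counted, and those described here were chosen after their values were seen. Over all genes 11.4% were higher in E3 and 10.3% lower. Of 5 measured insulin-like growth factor binding protein genes, 4 were higher in E3 than in OG2 and 1 was lower. Igfbp3 was 6.23-fold higher (8.48 ± 0.08 against 5.84 ± 0.13), Igfbp5 at least 7.72-fold, Igfbp4 at least 3.25-fold and Igfbp2 2.08-fold, while Igfbp7 was 5.64-fold lower (5.40 ± 0.13 against 7.89 ± 0.07). These secreted proteins hold insulin-like growth factors, and Igf2 was among the genes lower in E3. The p38 kinase genes were split: Mapk12 was 6.97-fold higher in E3, Mapk13 4.34-fold and Mapk11 at least 3.22-fold, and Mapk14, the form best known for stress signals, was at 9.14 ± 0.06 in E3 and 9.73 ± 0.07 in OG2. All 4 measured long-chain acyl-CoA synthetase genes had higher levels in E3, of which Acsl5 (2.74-fold), Acsl4 (2.23-fold) and, at its edge, Acsl3 were past the threshold. Of 6 measured caspase genes, Casp9 (2.64-fold), Casp8 (2.49-fold) and Casp6 (2.19-fold) were higher, and Casp14, not above background in E3, was lower with a bound of 1.52-fold.

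Of 9 measured genes with the stem Tex, 5 were lower in E3 and none was higher, and Tex19.1 among them is also on the germline list. Of the 6 detected on both arrays 3 were lower. Tex14, needed for bridges between germ cells, was at least 8.09-fold lower and Tex19.2 5.66-fold lower. The 4 measured Magea genes were detected on OG2 only, which fixed their direction, and Magea2 and Magea5 were at least 4.72-fold and 3.33-fold lower. Apoe, which carries lipids, was 9.21-fold lower (8.12 ± 0.14 against 11.32 ± 0.11), and Lgals3, or galectin-3, was 11-fold lower in E3, with 5.95 ± 0.12 in E3, 8.56 in T9 and 9.42 ± 0.07 in OG2. Glutathione transferase genes differed in direction, with Gsta3 at least 8.56-fold and Gstm2 5.25-fold lower in E3 and Gstk1, the mitochondrial form, 4.96-fold higher.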
